A study of Mus musculus with 2 samples.

Results

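MicroRNA genes were read for dimethylation of lysine 79 of histone H3 (H3K79me2) in unstimulated mouse macrophages grown from bone marrow. The members were all 2196 genes of the type miRNA that GENCODE release M21 places on chromosomes 1 to 19 and X of the mouse assembly GRCm38 (mm10), out of 53843 annotated genes on these chromosomes. The rule that takes them uses the annotation and no peak. Of these genes 1174 (53.5%) carry a symbol that begins with Mir, and the others carry symbols such as Gm24282 or mmu-mir-7686. A locus is the annotated hairpin, 39 to 442 bp long with a median of 89 bp, and was called covered where 50% or more of its bases lay under the deposited replicated peak list, which is 1 list for both replicates.

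The cells were primary macrophages of C57BL/6J mice with no stimulus and no genetic change named, and all libraries belong to 1 group of 2 biological replicates. Each library was made from 10 ng of DNA. Sex was not collected, age is unknown or not collected, and both samples carry the same donor identifier, so whether the replicates came from separate animals or cultures is not stated. With 1 group there was no comparison of conditions and no test, and the 2 replicates limit the precision of every share below. The depth of the libraries is unknown. The replicated list held 15559 peaks over 93.2 Mb, replicate 1's own list 22979 peaks over 63.5 Mb, replicate 2's own list 31577 peaks over 114 Mb and the pooled list 26838 peaks over 106 Mb. All 8 macrophage marker genes looked at, Spi1, Csf1r and Adgre1 among them, had covered bases, and none of the 13 marker genes of T cells, B cells, neutrophils, fibroblasts and liver had any.

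H3K79 methylation is laid down by the enzyme DOT1L behind elongating RNA polymerase II, and H3K79me2 typically lies over the 5′ part of transcribed gene bodies. MicroRNAs are cut from hairpins in longer primary transcripts by the Microprocessor, made of Drosha and Dgcr8, and then by Dicer. Many hairpins lie in an intron or exon of a longer gene, the host, and several hairpins can share 1 primary transcript as a cluster. A mature microRNA binds its targets mainly through its seed, bases 2 to 8.

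The mature sequences that the results turn on are given 5′ to 3′ with the seed in capitals, from the RefSeq table for GRCm38.p6, which held a mature sequence for 1007 of the 1174 loci with a Mir symbol (85.8%) and for 102 of the 110 covered ones (92.7%). The first set shows seeds shared by the covered members of 3 families: let-7, which restrains proliferation, miR-15 and miR-16, which act on the cell cycle, and the growth-promoting miR-17 family.
let-7a-5p (Mirlet7a-1, covered): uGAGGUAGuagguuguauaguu
let-7d-5p (Mirlet7d, covered): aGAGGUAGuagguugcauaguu
let-7g-5p (Mirlet7g, covered): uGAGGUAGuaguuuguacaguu
let-7i-5p (Mirlet7i, not covered): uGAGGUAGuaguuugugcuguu
miR-15a-5p (Mir15a, covered): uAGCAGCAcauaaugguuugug
miR-15b-5p (Mir15b, covered): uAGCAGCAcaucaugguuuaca
miR-16-5p (Mir16-1 and Mir16-2, both covered): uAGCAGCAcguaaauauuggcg
miR-17-5p (Mir17, covered): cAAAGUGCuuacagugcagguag
miR-20a-5p (Mir20a, covered): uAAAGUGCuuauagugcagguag
Loci with the same seed were covered in part. The let-7 seed GAGGUAG was found at 13 loci, of which 4 were covered. The seed AGCAGCA was found at 11, of which 4 were covered, and the seed AAAGUGC at 7, of which 2 were covered. For Mirlet7a-2, a let-7 locus that was not covered, the RefSeq table held only the 3p arm, let-7a-2-3p. Mirlet7a-2 is therefore not among the 13 loci, nor among the loci given for let-7a-5p.

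The next set holds microRNAs known from myeloid cells, of which the first 3 belong to covered loci and the last 3 to loci with no covered base.
miR-21a-5p (Mir21a, covered): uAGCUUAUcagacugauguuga
miR-142a-3p (Mir142, covered): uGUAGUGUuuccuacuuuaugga
miR-27a-3p (Mir27a, covered): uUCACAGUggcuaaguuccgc
miR-223-3p (Mir223, not covered): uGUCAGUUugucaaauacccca
miR-155-5p (Mir155, not covered): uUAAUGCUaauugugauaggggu
miR-146a-5p (Mir146, not covered): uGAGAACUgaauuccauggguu

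The last set holds mature sequences annotated at a covered locus and also at an uncovered locus elsewhere in the genome, so that the RNA itself could not say which locus it came from.
miR-24-3p (Mir24-2 covered, Mir24-1 not): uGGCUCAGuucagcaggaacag
let-7f-5p (Mirlet7f-1 covered, Mirlet7f-2 not): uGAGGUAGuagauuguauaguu
miR-19b-3p (Mir19b-1 covered, Mir19b-2 not): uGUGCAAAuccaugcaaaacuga
miR-92a-3p (Mir92-1 covered, Mir92-2 not): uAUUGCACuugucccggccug
miR-7a-5p (Mir7-1 covered, Mir7-2 not): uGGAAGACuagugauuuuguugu

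Most microRNA loci lay outside H3K79me2. Of the 2196 loci, 162 (7.38%) were covered and in 2026 (92.3%) no base was covered. The threshold of 50% set few of these calls, since 156 loci were covered over their whole length, 6 others over 50% or more and 8 over less. Loci with a Mir symbol were covered in 110 of 1174 cases (9.37%) and the others in 52 of 1022 (5.09%). By the same rule of 50% of the bases, 10.2% of coding genes, 3.75% of lncRNA genes and 5.57% of small nuclear RNA genes were covered. These genes differ from hairpins in length, and the share of all bases of chromosomes 1 to 19 and X under the list, 3.54%, is a further background.

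The covered hairpins lay inside blocks of H3K79me2 much longer than themselves. The 162 loci fell under 143 distinct blocks of 657 to 58713 bp, with a median of 6563.5 bp per locus against 3483 bp for all peaks of the list. The enrichment of each peak over the control, its fold, which is the authors' value and is used here only to describe peaks within a list, ran from 2.63 to 36.4 over the covered loci, with a median of 15.2. For all peaks the median fold was 7.37, and 136 of the 162 covered loci (84.0%) lay under a peak at or above it. As a locus is 1 point in a wide block, its fold is that of the block and says nothing of the hairpin alone. Block lengths and folds were taken once per locus, and those of all peaks once per peak. Longer blocks are likelier to hold a locus, and the highest peak gave its fold, so the medians are not like for like.

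Most covered loci lay inside another gene and on its strand. A host was taken as a coding or lncRNA gene whose span holds the whole locus, and 1133 loci (51.6%) had a host on the same strand, 320 (14.6%) only on the opposite strand and 743 (33.8%) none. Of the loci with a sense host 135 (11.9%) were covered, of those with an antisense host only 21 (6.56%), and of those with no host 6 (0.808%). Sense hosts thus held 135 of the 162 covered loci (83.3%). Coding sense hosts had 120 of 969 loci covered (12.4%) and lncRNA sense hosts 15 of 164 (9.15%). ChIP-seq does not read strand, so coverage of a locus by a block cannot be given to 1 strand, and the strand relation is that of the annotation only. The bodies of the 779 coding sense hosts had 8.14% of their bases under the list and those of all coding genes 8.76%.

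Nearly all covered hosted loci lay in a host that carried H3K79me2 at its start. The replicated list had to hold 200 bp or more of the 3 kb that follow a host's outermost annotated 5′ end for the host to be called marked, as it did for 30.6% of all coding genes and for 359 of the 779 coding sense hosts (46.1%). The 156 covered loci with a host lay in 139 hosts, and for 142 of them (91.0%) the host was marked. For 153 (98.1%) the host met the same rule at the 5′ end of at least 1 of its transcripts. The share by this looser rule is not given for uncovered loci or for all coding genes. Its window can also hold the block over the hairpin itself, so the 98.1% has no background here. In marked sense hosts 125 of 416 loci (30.0%) were covered, while on average 38.8% of the host's bases were. In sense hosts not marked 10 of 717 loci (1.39%) were covered, and on average 2.24% of the host's bases were. Averages of host coverage, here and by distance below, count a host once for each of its loci. Of the 717 loci, 119 form 1 cluster in Sfmbt2 with none covered. The locus and its host were read from the same list, so the 2 are not independent.

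Within marked sense hosts, coverage followed the distance of the hairpin from the start of the host. Of 116 loci whose middle lay within 5 kb of the outermost 5′ end, 67 were covered (57.8%), of 131 at 5 to 20 kb 40 (30.5%), of 83 at 20 to 50 kb 8 (9.64%), and of 86 farther in 10 (11.6%). The bodies of these hosts were covered over 47.2%, 42.2%, 33.3% and 28.0% of their bases on average. Replicate 1's own list covered 44, 24, 6 and 8 of the same loci in this order, and replicate 2's own list 75, 52, 12 and 11, so that both lists covered a smaller share of the loci from 20 kb on than of those nearer the start. The median distance was 4787 bp for the 125 covered loci and 20784 bp for the 291 others, which stood 34.6% and 66.5% along the host. The first 3 kb had served to call the host marked, so loci there shared their window with at least 200 covered bases.

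The first bases of the host were an exception. Only 6 of 35 loci within 0.5 kb of the outermost 5′ end were covered (17.1%), then 4 of 8 from 0.5 to 1 kb. From 1 to 2 kb 21 of 25 were covered (84.0%) and from 2 to 5 kb 36 of 48 (75.0%). The 21 include Mir18, Mir19a, Mir20a, Mir19b-1 and Mir92-1, which lie in Mir17hg under 1 block and were counted singly. Among those covered in the first 0.5 kb were Mir7009 in Anxa5, Mir5625 in Slc35f6, Mir423 in Nsrp1, Mir6359 in Rttn and Gm47293 in Ahsa1, named after their values were seen. Both per-replicate lists had the same gap, with 2 of the 35 loci covered in replicate 1 and 9 in replicate 2.

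**Figure D1:**
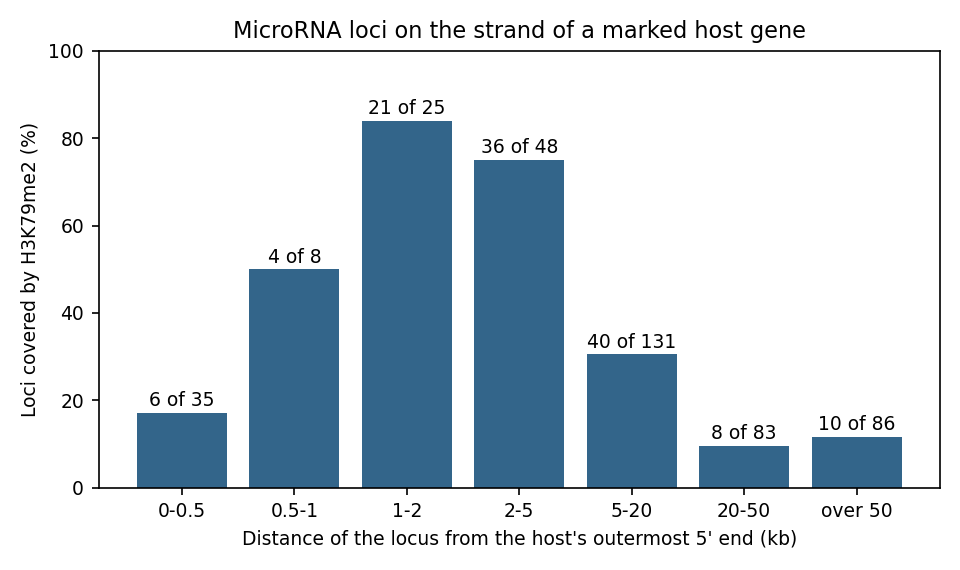
Share of microRNA loci covered by the replicated list (vertical axis, percent) by distance from the outermost 5′ end of a marked host on the same strand (horizontal axis, kb), with the number covered of the number of loci above each bar. The share was highest from 1 to 2 kb, with 21 of 25 loci, and low both in the first 0.5 kb (6 of 35) and beyond 20 kb (8 of 83 and 10 of 86).

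Exonic hairpins were covered more often than intronic ones, 41 of 225 (18.2%) against 87 of 827 (10.5%) among all loci with a sense host, and 7 of 81 (8.64%) of those that cross an exon border were covered. This order went with the marking of the host and with position. Of the 225 exonic loci 116 lay in marked hosts, and of the 827 intronic ones 266. Among these, 41 of 116 exonic loci (35.3%) and 78 of 266 intronic ones (29.3%) were covered. In marked hosts within 5 kb of the start, introns had 36 of 50 loci covered (72.0%) and exons 28 of 56, while beyond 5 kb introns had 42 of 216 (19.4%) and exons 13 of 60 (21.7%). Exonic loci of marked hosts stood nearer the start, at a median of 5297.5 bp against 19902 bp for intronic ones.

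Where a marked host had an uncovered hairpin, the block usually lay between the start of the host and the hairpin. For 264 of the 291 uncovered loci (90.7%) the nearest block touched the host. For 221 of the 264 (83.7%) it lay upstream of the locus on the host's strand, with a median gap of 8748 bp over these 221. In marked antisense hosts 17 of 85 loci were covered and in antisense hosts not marked 4 of 235 (1.70%). By distance from the start of the marked antisense host, 7 of 12 loci were covered within 5 kb (58.3%), 5 of 31 at 5 to 20 kb (16.1%), 3 of 15 at 20 to 50 kb and 2 of 27 farther in (7.41%), so that the highest share was again nearest the start, with no steady fall after it.

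MicroRNAs of macrophages and inflammation were covered at 8 of 28 loci (28.6%), against 110 of 1174 (9.37%) for all loci with a Mir symbol. The same background stands for the lists that follow. The median locus of the macrophage list had 0% of its bases covered, as had the median of all loci. Replicate 1's own list covered 8 of them and replicate 2's 9. The covered loci were Mir21a, Mir142, Mir326, Mir378a, Mir22, Mir23a, Mir27a and Mir24-2, of which the last 3 are 1 cluster under 1 block. The list is one of 12 that were chosen with other results of these data known, so its count is a description and not evidence of its own. Mir424 had no locus of that symbol in the annotation.

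Mir142, a microRNA of blood cells (chr11:87756864-87756927, plus strand), lay in an intron of the lncRNA gene Mir142hg, 1.32 kb from its start. The whole 1694 bp of the host were under a block of 2443 bp with a fold of 9.94. Both replicates' own lists covered the hairpin, at a fold of 7.59 in replicate 1 and 11.3 in replicate 2. Mir142b, annotated over the same bases on the opposite strand, was necessarily covered with it.

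Mir21a, a microRNA that rises in activated myeloid cells (chr11:86584067-86584158, minus strand), was covered far from the start of its host. It lay in an exon of Vmp1, a gene of autophagy, 99.7 kb from the host's start and 99.8% along it, where a separate block of 4227 bp had a fold of 9.30. The folds of the replicates' own peaks there, 9.76 and 9.25, were close to each other. H3K79me2 covered 19.4% of the whole host.

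The cluster of Mir23a, Mir27a and Mir24-2 (chr8:84208518-84208921, plus strand) had no host in the annotation and lay within 328 bp of the lncRNA gene Gm26532. A block of 5714 bp from 84204378 to 84210091 held all 3 hairpins and Mir3074-2, which overlaps Mir24-2 on the opposite strand, with a fold of 20.8. Its folds in the replicates' own lists were far apart, 4.49 in replicate 1 and 26.0 in replicate 2. These 4 loci made up most of the 6 covered loci with no host. The others were Mir1934 on chromosome 11, 401 bp from Mpdu1, with a fold of 21.4, and Gm27598 on chromosome 11, 11822 bp from Slfn8, with a fold of 10.1, and neither had a covered base in replicate 1's own list.

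The remaining covered members of the list lay within 20 kb of the start of a host. Mir22 (chr11:75463716-75463810) stood in an exon 2.05 kb into Tlcd2, and also inside the lncRNA gene Mir22hg, under a block with a fold of 20.4, and of 11.3 and 26.5 in replicates 1 and 2. Mir326 (chr7:99552269-99552363) stood in an intron 16.9 kb into Arrb1, the gene of beta-arrestin 1, which was covered over 62.0% of its length, with a fold of 15.9 and of 9.11 and 20.4 in the replicates. Mir378a lay in an intron 2.56 kb into Ppargc1b, a coactivator gene of mitochondrial metabolism, of which only 3.11% was covered, at a fold of 7.54 and of 2.63 and 11.4 in the replicates.

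Other microRNAs known for roles in inflammation had no covered base. Mir155 (chr16:84714140-84714204), which macrophages induce on stimulation by microbial products, lay in an exon of Mir155hg, and no base of the 12079 bp of that host was covered. The nearest block was 19.3 kb away. Mir146 and Mir146b, which dampen NF-kB signalling, had no covered base and stood 4.55 kb and 4.09 kb from the nearest block. Mir125a, in Spaca6, stood 206 kb from the nearest block of the replicated list and 7624 bp from one of replicate 2's own list. None of these loci was covered in either replicate's own list.

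Mir223 (chrX:96242817-96242926), which is abundant in myeloid cells, lay just past a block. Its host, the lncRNA gene F630028O10Rik, was covered over 2689 of its 3711 bp (72.5%), from 97 to 2785 bp after its start, and the hairpin began 106 bp farther on. In replicate 1's own list the block over this host ended 1317 bp short of the hairpin and in replicate 2's own list 209 bp short. Mir511 and Mir33, named after their values were seen, stood deep in marked hosts. Mir511 lay in an intron 31.6 kb into Mrc1, the gene of the mannose receptor, 17.4 kb from the block at its start. The nearest block to Mir511 was 17733 bp away in replicate 1's own list but 534 bp away in replicate 2's. Mir33 lay in an intron 51.0 kb into Srebf2, a regulator gene of cholesterol synthesis, 27.1 kb from the nearest block.

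**Figure D2:**
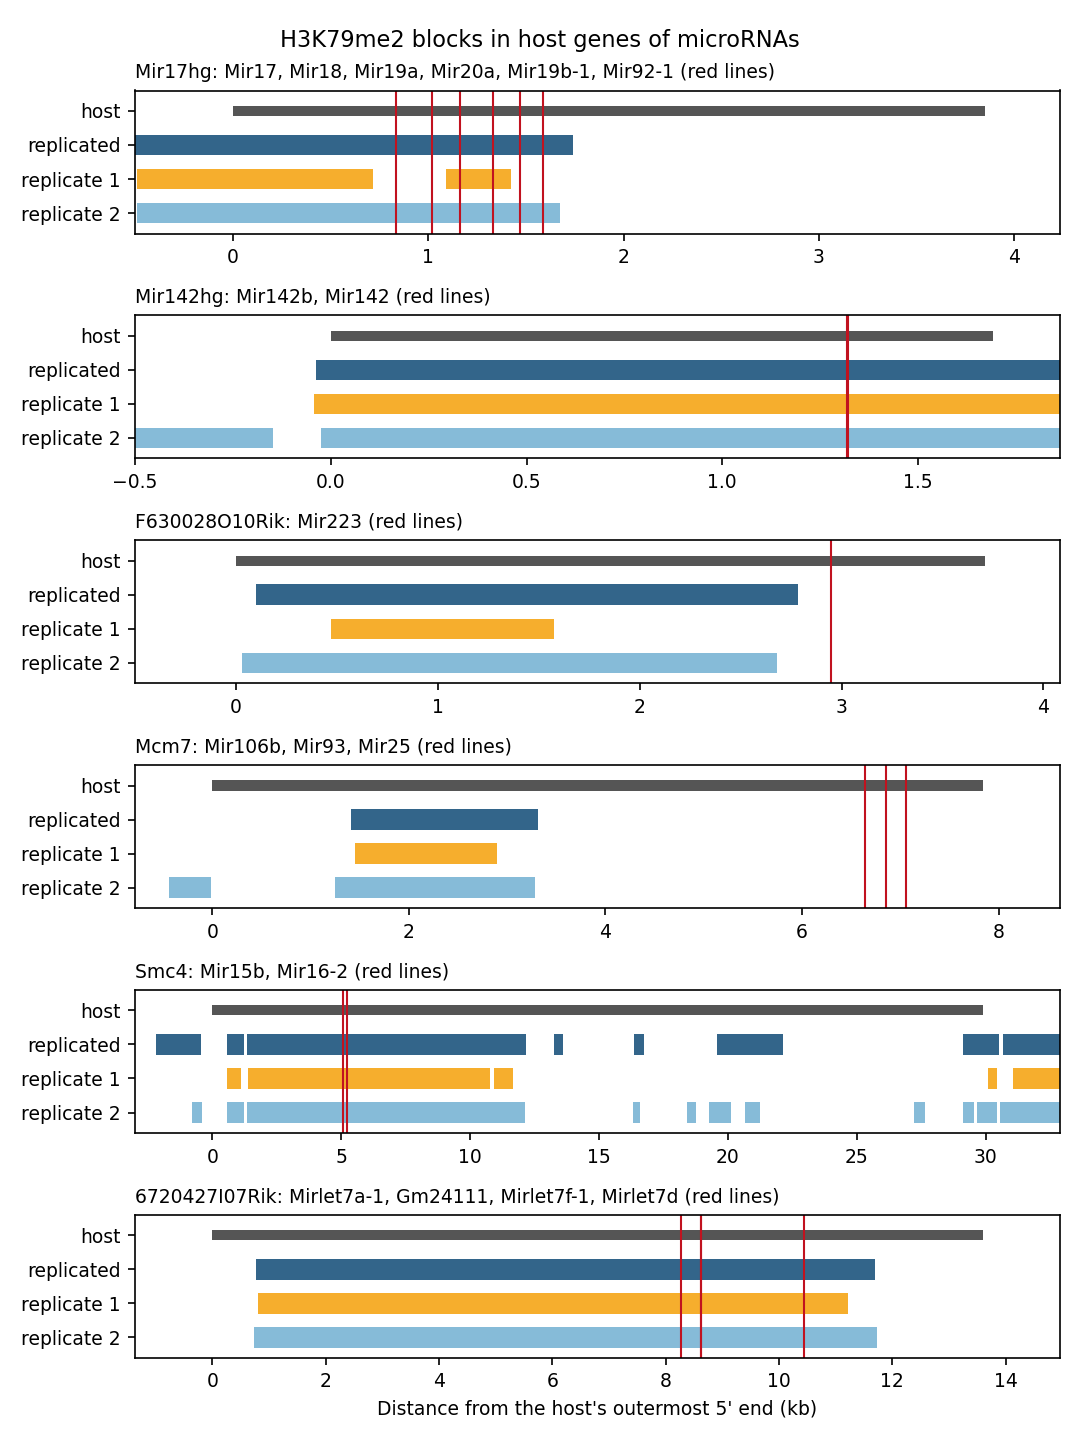
Blocks of H3K79me2 along 6 host genes: the host in grey, the replicated list in dark blue, replicate 1's own list in orange, replicate 2's own list in light blue, and red lines at the middle of each hairpin, against the distance from the host's outermost 5′ end (kb). The hairpins of Mir17hg, Mir142hg, Smc4 and 6720427I07Rik lie inside a block of the replicated list, Mir223 lies 106 bp past one, and those of Mcm7 lie beyond the block at its start.

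The 3 clusters of the miR-17 family differed in coverage. All 6 hairpins of the Mir17 cluster (chr14:115043671-115044506) were covered, in exons of the lncRNA gene Mir17hg between 0.833 and 1.59 kb from its start. The block of 2250 bp over them had a fold of 5.31, low among the covered loci, and ended 1743 bp after the start of the host. Replicate 2's own list covered all 6 at a fold of 7.84. Replicate 1's own list had a block up to 719 bp and another from 1093 to 1424 bp, which covered Mir19a and Mir20a, at a fold of 2.79, and left out Mir17, Mir18, Mir19b-1 and Mir92-1. Mir106b, Mir93 and Mir25, in the DNA replication gene Mcm7, the first in an intron and the others in exons, stood 6.64 to 7.06 kb from its start and were not covered. The block of this host ran from 1414 to 3317 bp. The X-linked cluster of Mir106a had no covered base, and its members Mir19b-2 and Mir92-2 stood 171 kb from the nearest block.

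In the let-7 family 4 of 12 loci were covered, all 4 in both replicates' own lists. Mirlet7a-1, Mirlet7f-1 and Mirlet7d (chr13:48536012-48538272, minus strand) lay in exons of the lncRNA gene 6720427I07Rik, 8.28 to 10.4 kb from its start, under a block of 10927 bp with a fold of 30.3, and of 21.4 and 33.5 in replicates 1 and 2. Mirlet7g (chr9:106178840-106178927) lay in an intron 7.96 kb into Wdr82, the gene of a histone methyltransferase subunit, at a fold of 30.6, and of 17.3 and 37.9 in the replicates. The first 5 uncovered members in list order had no covered base: Mirlet7a-2 stood 379 kb from the nearest block, Mirlet7b 26.9 kb, Mirlet7c-1 87.7 kb, Mirlet7c-2 26.2 kb and Mirlet7e 206 kb. Mirlet7i, with no host and named after its value was seen, missed a block by 224 bp in the replicated list and by 223 and 224 bp in replicates 1 and 2.

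Of the miR-15 and miR-16 loci found, 4 of 6 were covered, all in both replicates' own lists, while Mir195a and Mir322 were not. The listed symbol Mir497a had no locus in the annotation. Mir497, which has the seed AGCAGCA and lies in a cluster with Mir195a, was not covered and is not among the 6. Mir15b and Mir16-2 (chr3:69009772-69009996) lay in an intron 5.07 and 5.21 kb into Smc4, a condensin gene, at a fold of 22.5, and of 17.2 and 26.6 in the replicates. Mir15a and Mir16-1 (chr14:61631880-61632110) lay 50.3 and 50.4 kb into the lncRNA gene Dleu2 under a block of 17207 bp with a fold of 16.4, and of 4.04 and 23.9 in the replicates. Mir195a stood 3.17 kb from the nearest block.

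Of 8 loci of miR-26, miR-103, miR-107 and miR-128, Mir26b alone was covered (chr1:74394310-74394394), 2.84 kb into Ctdsp1 at a fold of 12.2, and of 7.19 and 19.7 in the replicates. Its relative Mir26a-1 lay in Ctdspl, which had no covered base, 273 kb from the nearest block. Mir26a-2, 16.9 kb into Ctdsp2, stood 2.88 kb past a block. Of the hairpins in genes of pantothenate kinases, Mir103-1 in Pank3 stood 1.46 kb past a block, Mir103-2 in Pank2 13.6 kb and Mir107 in Pank1 52.8 kb. None of the 16 loci of miR-29, miR-30 and miR-181 was covered in the replicated list, though replicate 2's own list covered Mir29b-1 at a fold of 2.98 and Mir30d at 5.17.

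MicroRNAs of other tissues had no covered locus in any of the 4 lists: 0 of 3 for T cells, B cells and red cells, 0 of 12 for muscle, liver and pancreas, 0 of 12 for epithelia and endothelia, 0 of 12 for neurons and 0 of 11 for pluripotent cells. Mir302a, Mir302b, Mir302c, Mir302d and Mir367, a pluripotency cluster, lay inside Larp7, which had 3.57 kb covered, and stood 3190 to 3696 bp from the nearest block. Mir150, a microRNA of lymphocytes, stood 807 bp from the nearest block. The listed symbols Mir486a, Mir486b and Mir292a had no locus in the annotation and are not in these counts. Across all loci with a Mir symbol the share covered was 9.37%.

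**Figure D3:**
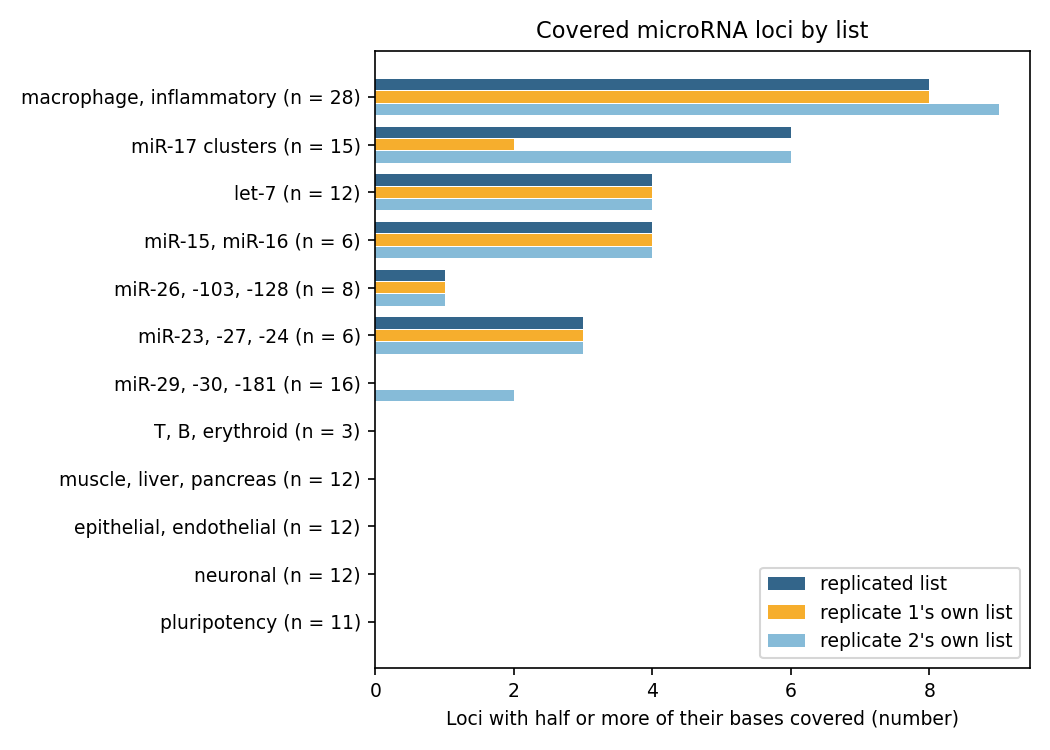
Number of loci with 50% or more of their bases covered (horizontal axis) in each of 12 lists, for the replicated list and each replicate's own list, with the number of loci found in brackets. The macrophage list has 8, 8 and 9 covered loci, the miR-17 clusters 6, 2 and 6, and the 5 lists of other lineages and tissues none.

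Identical mature sequences were annotated at loci that differed in coverage. No RNA was read here, so whether a locus made its microRNA in these cells is not known. The covered loci held 179 distinct mature sequences, and 9 of them were also annotated at an uncovered locus. The RefSeq table held only the 3p arm of the uncovered Mirlet7a-2, so let-7a-5p is not among the 9, and that count can fall short. Of the 50 sequences annotated at 2 or more loci, 1 had all loci covered, miR-16-5p, 9 had some covered and 40 none. Besides the 5 such sequences printed above, these were let-7a-1-3p (Mirlet7a-1 covered, Mirlet7c-2 not), miR-3074-5p (Mir3074-2 covered, Mir3074-1 not), and the 5p and 3p arms of miR-6967 (Gm27740 covered, Gm27775 not). Mir24-1 lay in an exon 336 kb into the coding gene 2010111I01Rik, 3.19 kb from a block, together with Mir23b and Mir27b, and none of the 3 was covered. Mirlet7f-2 lay 112 kb into Huwe1 and 76.7 kb from the nearest block. Mir7-1, in an intron near the end of Hnrnpk, an RNA-binding protein gene, was covered at a fold of only 2.93, and in replicate 2's own list but not in replicate 1's.

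With clusters taken as loci of 1 strand with at most 10 kb between neighbours, 477 loci formed 123 clusters, of which 9 (7.32%) had every member covered, 4 some and 110 none. The balance between the first 2 of these counts turned with the gap: with at most 50 kb between neighbours, 8 clusters were covered as a whole and 11 in part. In replicate 2's own list, at 10 kb, the counts were 10 and 7. Clustered loci were covered in 29 of 477 cases (6.08%) and lone loci in 133 of 1719 (7.74%). Of the 477, 119 belonged to 1 uncovered cluster on chromosome 2, so the lower share of clustered loci rests on that cluster. The members of a cluster can share a block and are not independent. Besides the clusters of Mir17, Mirlet7d, Mir23a, Mir15b and Mir16-1, those covered throughout were Mir5123 with Gm24112 and Gm25931 in B4galt1, Mir3064 with Gm25994 in Ddx5, Gm23419 with Mir6935 in Actg1 and Mir1306 with Gm24572 in Dgcr8. Both hairpins of Dgcr8, itself the gene of the Microprocessor subunit, lay in an exon 4.65 and 4.97 kb from its start at a fold of 17.5, and Mir1306 was covered in replicate 2's own list but not in replicate 1's. The longest clusters were among the uncovered: 119 loci of the Mir466, Mir467 and Mir669 families on chromosome 2, 39 loci from Mir379 on and 14 from Mir770 on, both on chromosome 12, and 19 loci from Mir743 on, on chromosome X, with no member covered in any of the 4 lists.

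The hosts with the most covered loci were Mir17hg with 6, 6720427I07Rik with 4, of which Gm24111 lies antisense, and B4galt1 with 3, followed by 7 hosts with 2 each. B4galt1, a galactosyltransferase gene, was covered over 82.6% of its 49404 bp.

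Mir1982, in an exon 2.18 kb into Oaz1, the gene of ornithine decarboxylase antizyme, had the highest fold of the loci with a Mir symbol, 31.7, and of 21.2 and 33.3 in replicates 1 and 2. Mirlet7g (30.6), Mir5123 (30.5) and the let-7 cluster on chromosome 13 (30.3) followed. Next came Mir7009 at 30.1 in Anxa5 and Mir3109 at 28.4 in Anxa2, both genes of calcium-dependent membrane-binding annexins. Mir7062 had a fold of 27.7 in Adam8, a metalloprotease gene of leukocytes, Mir7038 27.6 in the translation factor gene Eif3b and Mir7031 26.8 in Sh2b3, an adaptor gene of cytokine signalling. Mir5129 in Zeb2 and Mir6374 in Tet3 both stood at 25.5. Among all covered loci the highest fold, 36.4, was that of Gm24282, antisense in an intron of Elf2, under a block of 55621 bp. It was named after its value was seen, and its folds in replicates 1 and 2 were 4.88 and 42.6.

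The replicates' own lists were nested over these loci. Replicate 1's own list covered 107 loci (4.87%; 5.62% of coding genes by the same rule) and replicate 2's 205 (9.34%; 12.8% of coding genes). All 107 of replicate 1 were among the 205 of replicate 2, so that 52.2% of replicate 2's loci were shared, 98 were covered in replicate 2 only and none in replicate 1 only. By that rule 1219 coding genes were covered in both lists, 4 in replicate 1 only and 1572 in replicate 2 only, so the one-sided difference was not particular to microRNA loci. Of the 162 loci covered in the replicated list, 107 (66.0%) were covered in both own lists and 55 (34.0%) in replicate 2's only. These are calls over the hairpin, and a block of the replicated list can hold a peak of replicate 1 beside the hairpin, as the block over Mir17hg did.

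Loci shared by the replicates had higher folds. The median fold in replicate 2's own list was 22.3 at the 107 shared loci and 11.6 at the 98 others. Below a fold of 10 in replicate 2, 14 of 61 loci (23.0%) were covered in replicate 1, from 10 to 20 33 of 57 (57.9%), from 20 to 30 38 of 58 (65.5%) and from 30 on 22 of 29 (75.9%). Of the 98, 93 had no base at all in replicate 1's own list. Some of these had high folds in replicate 2: Mir7009 in Anxa5 with 38.4, Mir7038 in Eif3b with 35.5 and Mir1903 in Nrp1 with 32.3, named after their values were seen. Replicate 1's own list still had a block 359 bp from Mir7009 and one 601 bp from Mir7038. Of the 7 listed microRNAs covered in replicate 2 only, Mir17, Mir18, Mir19b-1 and Mir92-1 had a fold of 7.84 in replicate 2 and Mir342, 104 kb into Evl, 7.52, while Mir30d and Mir29b-1 had lower folds. Mir342, Mir30d and Mir29b-1 were not covered in the replicated list.

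**Figure D4:**
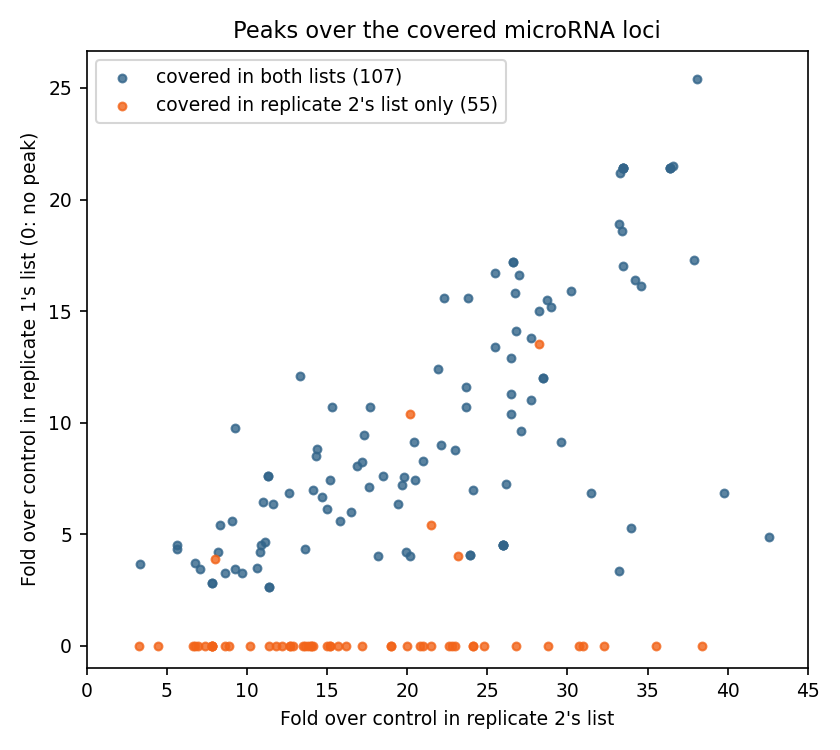
Fold over control of the peak at each of the 162 covered loci in replicate 2's own list (horizontal axis) and replicate 1's own list (vertical axis, 0 where it has no peak there), in blue for the 107 loci covered in both own lists and in orange for the 55 covered in replicate 2's only. The orange points run over most of the range of replicate 2, and 5 of them lie above 0, where a peak of replicate 1 touched less than 50% of the locus.

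On autosomes 161 of 2054 loci were covered (7.84%), from 6 of 146 on chromosome 12 (4.11%) to 11 of 71 on chromosome 14 (15.5%), and on the X chromosome 1 of 142 (0.704%). The X chromosome held 54 loci with a sense host, of which 14 lay in marked hosts and 1 of these was covered (7.14%), against 124 of 402 on autosomes (30.8%). The covered one, Mir652 in an intron 57.6 kb into Tmem164, had the lowest fold of all covered loci, 2.63, and no base in replicate 1's own list. The sex of the animals, which sets the number of X chromosomes, was not collected, and its part in these shares was not tested.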

How the data were processed

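H3K79me2 ChIP-seq was done on 2 biological replicates of 1 group. Per the deposited text notes, the authors made 4 peak lists on mm10: 1 of each replicate alone, 1 of the pooled alignments and 1 replicated list drawn from both. The sources used here give neither the aligner nor the peak caller and its thresholds. The deposited fold of each peak over the control is a ratio computed by the authors, and its normalization is not given here either. It was used only to describe and filter peaks within a list. Depth is unknown, so no interval or floor is given.

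Overlapping peaks of a list were joined and compared with GENCODE M21 in Python 3.11.15 and numpy 2.4.6. A locus was covered where at least 50% of its bases lay under the list, and its fold is the highest of the peaks over it. Where several genes hold a locus, the host was a sense gene before an antisense one, a coding gene before a lncRNA gene, and then the longest. Overlaps were checked on simulated ranges, where all 2000 gave the known answer. No test was possible with 1 group, so counts stand beside the same rule over all coding genes.

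The members and the 12 lists were chosen with earlier results of these data known. Named were the covered members of the lists and up to 5 uncovered ones in list order, the 10 highest folds among Mir symbols with 1 per cluster, the 5 clusters and hosts with the most covered loci, covered loci with no host, copies of 1 mature sequence, and up to 5 loci covered in 1 replicate only. Some uncovered list members are given as counts. Alternatives changed the peak list, the share of a locus, the members, the host class and the gap of a cluster. Those on position and on copies were chosen after seeing the data. Alignments and signal tracks were not used here.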

Additional observations from a re-analysis of the deposited data

How the results depend on the processing

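Of 51 values under other settings, 42 kept their size and 9 moved. A count kept its size while its ratio to the main value stayed within a fixed limit. The limit was wide: 110 and 205 covered loci against 162 counted as kept. The share by position was judged by a binomial interval that takes loci as independent. A single count or share has no direction to reverse, but the balance of clusters covered as a whole and in part turned with the gap. Replicate 1's own list alone gave fewer covered loci: with either replicate left out, 107 to 205 loci were covered, 87 to 168 of them with a sense host, and clusters covered in part numbered 4 to 7. The share covered within 5 kb of the start of a marked sense host was 40.0 to 60.8% in the same way, and the number of mature sequences from both covered and uncovered loci 4 to 10, both chosen after seeing the data. With only coding genes as hosts, 23 covered loci had no host. Clusters covered in part numbered 1 with a gap of 3 kb and 11 with 50 kb. With Mir symbols only, 70 loci were covered in both own lists.

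No paired analysis was possible because all samples belong to 1 group. Host positions rest on the outermost annotated 5′ end and on the longest host. Gm20388, annotated over 4434882 bp, was taken as the host of Mir1967, which also lies in Urb2. With the shortest host, 57.9% of loci within 5 kb were covered. Hairpins that overlap each other, 34 pairs with 67 loci, were counted singly. The depth of the libraries, which limits what a list can hold, is unknown, so an uncovered locus had no called peak and is not shown to lack H3K79me2.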
